A study of Homo sapiens with 16 samples.

Results

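The genes described here are 9 genes of transforming growth factor beta (TGF-β) signalling: the ligands TGFB1, TGFB2 and TGFB3, the receptors TGFBR1 and TGFBR2, the co-receptor TGFBR3, the signal transducer SMAD3, the inhibitory SMAD7 and the co-repressor gene SKIL. They were chosen by name from the 20007 protein-coding genes of the annotation, and each was joined to the H3K27ac regions that lay in its gene body or within 100 kb of its 5′ end. Of the 7130 regions that changed upon inhibition of O-GlcNAc transferase (OGT), 19 met this rule, of which 13 had lost and 6 had gained H3K27ac.

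H3K27ac, the acetylation of lysine 27 of histone H3 that marks active promoters and enhancers, had been profiled by chromatin immunoprecipitation and sequencing in LX-2, an immortalised line of human hepatic stellate cells that has myofibroblastic features. The control cultures were given the DMSO vehicle and the treated ones OSMI-1, an OGT inhibitor referred to as OGTi, at 50 µM and harvested after 24 h, with 4 H3K27ac libraries for each condition. OGT attaches O-GlcNAc, a single sugar, to nuclear and cytoplasmic proteins. The other 8 of the 16 samples are input DNA or column purified chromatin and were not used here. All libraries come from 1 cell line and 1 dose and time, so neither a second line nor a time course is behind any region. The 2 lists hold 3507 lost and 3623 gained regions as positions only. The size of each H3K27ac change and its spread over the 4 libraries are therefore unknown, as is read depth, and all counts below are descriptions with no test. The labelled cell type could not be checked against marker genes, since the lists give no levels.

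TGF-β ligands are secreted in a latent form and, once released, bind a complex of the type II receptor TGFBR2 and the type I receptor TGFBR1, a pair of serine/threonine kinases. TGFBR1 phosphorylates SMAD2 and SMAD3, which join SMAD4 and bind DNA beside other transcription factors, whereas SMAD7 blocks the receptor and the SKIL protein, SnoN, represses SMAD target genes. In hepatic stellate cells the pathway is a main driver of myofibroblastic activation and collagen production.

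SMAD3 held 7 of the 13 lost regions, TGFBR1 held 4 and TGFBR3 held 2. The 6 gained regions lay at TGFB2 and TGFBR2, with 2 each, and at SMAD3 and SMAD7, with 1 each. TGFB1, TGFB3 and SKIL had no listed region. Within these windows SMAD3 was the single gene of the 9 with regions of both directions, which 7.22% of all protein-coding genes had, and with windows of 200 kb TGFB2 also had both, with 7 lost and 5 gained. A lost region was present at 3 of the 9 genes, against 21.6% of all protein-coding genes joined to regions in the same way, and a gained region at 4 of the 9, against 30.5%. No listed region was present at 3 of the 9, against 55.1% of all genes. Each of these 3 counts is within 2 genes of the number that the background share gives among 9 genes.

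**Figure D1:**
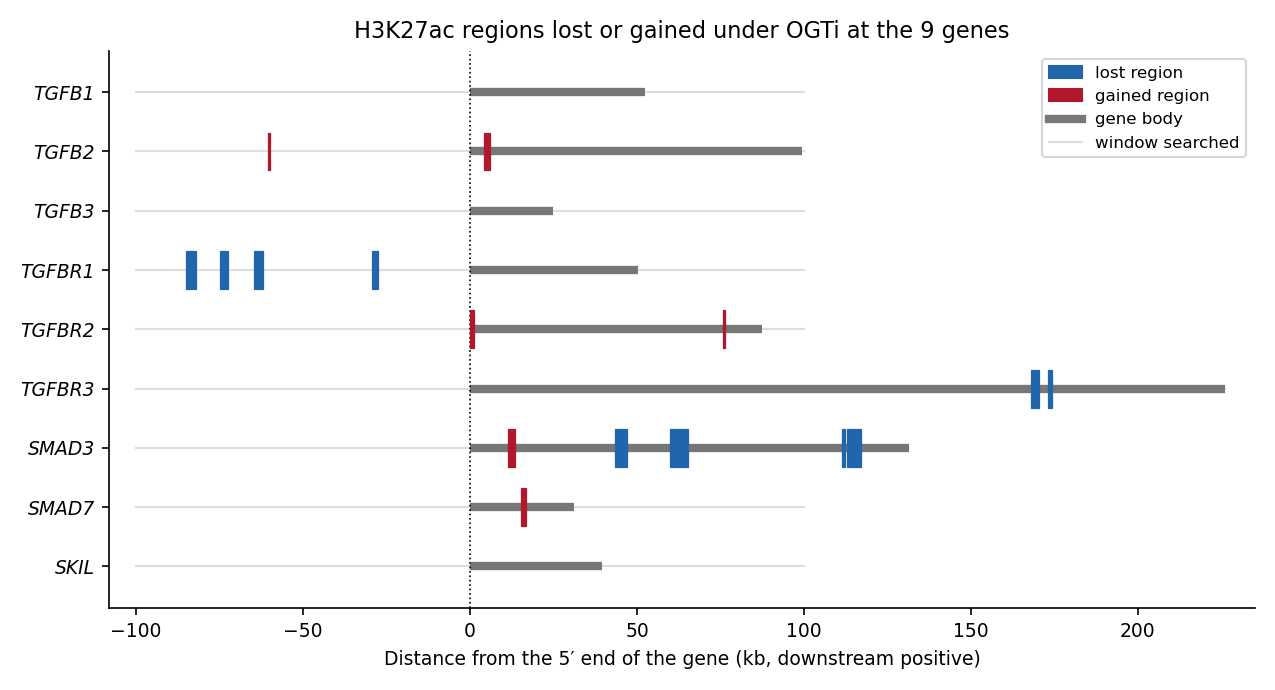
Position of every lost (blue) and gained (red) H3K27ac region at the 9 genes, 1 row per gene, as distance from the 5′ end of the gene in kb (x axis, downstream positive); thick grey lines are gene bodies and thin lines the window searched. The 4 lost regions of TGFBR1 lie upstream of the gene, the 7 of SMAD3 and the 2 of TGFBR3 lie inside the gene, and 1 gained region sits on the 5′ end of TGFBR2.

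Gene length can enter these counts, since a body longer than 100 kb makes a wider window. Of the 9 genes, 6 are at least 50 kb long, and 3 of these had a lost and 3 a gained region, beside 21.1% and 28.5% of the protein-coding genes of that length. Over the 1957 kb of the 9 windows there were 0.664 lost and 0.307 gained regions per 100 kb, compared with 0.168 and 0.214 per 100 kb of the windows of all protein-coding genes, counted gene by gene, and with 0.114 and 0.117 per 100 kb of the genome. SMAD3 alone had 3.03 lost regions per 100 kb of its window. TGFBR1 followed with 2.00 per 100 kb and TGFBR3 with 0.614 per 100 kb.

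The sequences below place the results on the genome before each gene is taken in turn. They are the stretches of the lost and gained regions around the DNA words bound by TEAD factors, which cooperate with YAP in mechanical signalling and can bind together with SMAD complexes, around a truncated form of the SMAD binding palindrome, and around 1 word bound by ATF4 with C/EBP factors. Each was read from the plus strand of hg38, 5′ to 3′, with 12 flanking bases on each side and the matched word in capitals. A match describes the letters and shows no binding.

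The TEAD words searched, on both strands, were ACATTCCA, ACATTCCT, GCATTCCA and GCATTCCT. At least 1 of them occurred in 7 lost regions out of 13 and in 2 gained regions out of 6. The first match of each of these 9 regions is printed to show that the words lie in introns 1 and 5 of SMAD3, in lost and gained regions alike, and upstream of TGFBR1:
TGFB2, gained, chr1:218351073-218351104: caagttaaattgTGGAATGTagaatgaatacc
TGFBR1, lost, chr9:99019046-99019077: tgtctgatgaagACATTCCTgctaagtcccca
TGFBR1, lost, chr9:99029269-99029300: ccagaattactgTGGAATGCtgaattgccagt
TGFBR1, lost, chr9:99041133-99041164: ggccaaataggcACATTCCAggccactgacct
TGFBR3, lost, chr1:91736933-91736964: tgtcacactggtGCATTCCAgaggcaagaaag
SMAD3, gained, chr15:67076455-67076486: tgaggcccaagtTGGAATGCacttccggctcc
SMAD3, lost, chr15:67108416-67108447: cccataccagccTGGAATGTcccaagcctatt
SMAD3, lost, chr15:67109537-67109568: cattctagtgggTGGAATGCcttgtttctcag
SMAD3, lost, chr15:67178739-67178770: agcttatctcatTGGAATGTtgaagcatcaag

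The SMAD words were GTCTAGAC, an 8-base palindrome, its truncated form GTCTAGA, which lies within it, the short element CAGAC and the GC-rich element GGCGCC. GTCTAGAC was in none of the 19 regions, beside 1.255% of the lost and 0.938% of the gained list, so its absence from 19 regions tells little. The truncated form was in 3 lost regions, 1 upstream of TGFBR1 and 2 in SMAD3. In the last of these a CAGAC match, at 67126336 to 67126340, ends directly before the truncated palindrome:
TGFBR1, lost, chr9:99019806-99019836: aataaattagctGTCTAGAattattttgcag
SMAD3, lost, chr15:67124323-67124353: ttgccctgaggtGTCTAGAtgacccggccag
SMAD3, lost, chr15:67126329-67126359: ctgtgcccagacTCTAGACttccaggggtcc

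Of the 3 ligand genes, 2 had no listed region. TGFB1, which encodes the main ligand of fibrotic tissue, spans chr19:41301587-41353922 on the minus strand and had no region in its window. The gained region nearest to its 5′ end was 125.9 kb away, past the 3′ end of the gene and next to AXL, and the nearest lost region was 927.9 kb away. TGFB3, at chr14:75958097-75983011 on the minus strand, had its nearest lost region 527.1 kb and its nearest gained region 978.3 kb from its 5′ end. The lists hold changed regions only, so an empty window does not tell whether these genes carry H3K27ac in LX-2.

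TGFB2, the ligand gene that had regions, spans chr1:218345336-218444619 on the plus strand, and both of its regions were gained. One, chr1:218349428-218351427, is 2000 bp wide, has its centre 5.09 kb downstream of the 5′ end and lies in intron 1 with no exon base. It holds 1 TEAD word and 1 match of the AP-1 word TGANTCA, the site of FOS and JUN dimers. The other, chr1:218284889-218285560, is 672 bp wide with its centre at -60.1 kb (negative values are upstream). It covers 163 exon bases of RRP15, a ribosome biogenesis gene whose 5′ end lies within it, so by position it belongs to the neighbouring promoter. TGFB2 is the nearest protein-coding gene of the intronic region only. As with the other genes, the 100 kb limit decides what is counted: the nearest lost region was 129.4 kb from the TGFB2 5′ end, downstream of the gene.

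The regions joined to TGFBR1 were all lost and those joined to TGFBR2 all gained, but the ones of TGFBR1 depend on the window. TGFBR1, the type I receptor kinase gene, spans chr9:99104038-99154192 on the plus strand and had 4 lost regions and no gained one, the nearest gained region being 235.8 kb away. At least 4 lost regions were present at 1.99% of the protein-coding genes. None of the 4 was in the TGFBR1 body, and with windows of 50 kb and 2500 bp around the 5′ end TGFBR1 had 1 and 0 lost regions. Of these, 3 lay in the body of COL15A1 (chr9:98943179-99070792), which encodes the alpha chain of type XV collagen of basement membrane zones and ends upstream of TGFBR1 on the same strand, with centres at -83.6, -73.7 and -63.3 kb. The last, chr9:99074712-99076471, lay between both genes at -28.4 kb. By distance to a 5′ end, TGFBR1 was the nearest protein-coding gene of 3 of the 4, and COL15A1 of the most distant one. Which of the 2 genes these regions act on cannot be told from position.

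The 3 lost regions inside COL15A1, at chr9:99018944-99021932, chr9:99029123-99031519 and chr9:99039453-99042100, were wide, at 2989, 2397 and 2648 bp, and all of them held both TEAD and AP-1 words. They had 1, 1 and 2 TEAD and 3, 2 and 2 AP-1 matches, with a TEAD and an AP-1 word 95.5 bp apart, centre to centre, in the third. The intergenic region, 1760 bp wide, had neither word. All 4 were poor in CpG, with observed/expected ratios from 0.127 to 0.169, below the median of the lost list, 0.202.

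TGFBR2, the type II receptor kinase gene, spans chr3:30606601-30694142 on the plus strand and had 2 gained regions. The nearest lost region was 6085 kb away. The gained region chr3:30606570-30607680, 1111 bp wide, covers the 5′ end itself and holds the starts of 2 protein-coding transcripts. This was the one region of the 19 within 2500 bp of the 5′ end of its gene. A gained region in that position was found at 6.4% of the protein-coding genes and a lost one at 1.96%. It was rich in GC (65.8%) and CpG (ratio 0.841) and held 3 GGCGCC matches. At its upstream edge it also contains 1 AP-1 word, which ends on the annotated first base of the gene. The stretch from the edge of the region to that base is printed from the RefSeq promoter of GRCh38.p14, with the AP-1 word in capitals:
TGFBR2, gained, chr3:30606570-30606601: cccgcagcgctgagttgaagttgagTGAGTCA

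An AP-1 word was present in 7.71% of the 35116 RefSeq promoter windows. The second gained region of TGFBR2, chr3:30682385-30682811, was the narrowest of the 19 at 427 bp. It lies 76.0 kb downstream of the 5′ end in intron 5, and none of the words searched was in it.

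TGFBR3 encodes betaglycan, a membrane proteoglycan that presents the ligands, TGF-β2 in particular, to the signalling receptors. The gene spans chr1:91680343-91906335 on the minus strand and is the longest of the 9 at 226 kb. Its 2 lost regions, chr1:91735878-91738239 and chr1:91732153-91733219, lay in introns 4 and 5 with centres 169.3 and 173.6 kb downstream of the 5′ end. They would not be counted by distance to the 5′ end alone, and enter through the gene body. At least 2 lost regions were present at 8.37% of the protein-coding genes. The wider region, 2362 bp, held 2 TEAD words, and the narrower, 1067 bp, 2 AP-1 words. The nearest gained region was 677.7 kb from the 5′ end.

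SMAD3, the transcription factor that carries the signal to the nucleus, spans chr15:67063763-67195173 on the plus strand. It had 7 lost regions, and as many or more were found at 60 protein-coding genes, SMAD3 included, which is 0.3% of all, and at 35 of the 6786 that are at least 50 kb long. All 7 lay inside the gene, and none was near its 5′ end. Several of them abut, because wide peaks were divided into bins before the test of the authors. Joined where they touch, the 7 regions form 4 blocks, of 3470, 5095, 1057 and 3929 bp, and the last 2 blocks are less than 1000 bp apart. SMAD3 therefore had 3 separate stretches of loss, of which the first 2 lie in intron 1 and the third in intron 5. The share of 0.3% counts regions before joining, and no share of genes was computed for joined stretches.

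The first stretch, chr15:67107282-67110751, consists of 2 regions centred 44.5 and 46.3 kb downstream of the 5′ end, with 2 and 1 TEAD words. The second, chr15:67123783-67128877, is made of regions centred at 61.2 and 63.8 kb. It covers the starts of 2 shorter protein-coding transcripts of SMAD3, ENST00000540846.6 at 67125716 and ENST00000558894.5 at 67128103, and so is promoter-proximal for these although it is distal to the gene's own 5′ end. RefSeq places a start at 67125742, and the 250 bases before it lie whole within the lost region. They are printed because they are an internal promoter of SMAD3 within a region of lost H3K27ac, with an AP-1 word in capitals (RefSeq, GRCh38.p14, plus strand):
SMAD3 internal promoter, lost, chr15:67125492-67125741: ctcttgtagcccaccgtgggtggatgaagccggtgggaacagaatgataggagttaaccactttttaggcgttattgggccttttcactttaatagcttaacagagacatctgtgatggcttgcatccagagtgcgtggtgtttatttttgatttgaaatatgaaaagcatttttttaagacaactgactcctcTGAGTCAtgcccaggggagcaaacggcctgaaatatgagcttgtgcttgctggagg

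The promoter window around this start, of 300 bases, has a GC content of 47.0% and a CpG ratio of 0.319, whereas the window of TGFBR2 has 61.7% and 0.853. The promoter with loss at SMAD3 was thus poor in CpG and that with gain at TGFBR2 rich in it. Of the 24 RefSeq promoter windows of the 9 genes, these were the 2 that a listed region overlapped.

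The region chr15:67126179-67128877 of the same block held 17 CAGAC matches, or 6.30 per kb. In the 2 lists together, 6 regions (0.0842% of 7130), this one included, had 17 or more. This region and its neighbour each have 1 of the 3 truncated palindromes printed above. Neither held a TEAD word, in contrast to the first stretch, where both regions did.

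The third stretch of SMAD3 consists of the regions chr15:67175017-67176073, chr15:67176789-67179202 and chr15:67179203-67180717, centred 111.8, 114.2 and 116.2 kb downstream of the 5′ end. Their nearest 5′ end is that of IQCH, a gene further downstream, 74.8 to 79.2 kb away. They nonetheless lie in SMAD3 intron 5. The middle region had 10 CAGAC matches and 1 TEAD word, and the first 2 AP-1 words.

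The gained region of SMAD3, chr15:67074991-67077162, lies upstream of all of these, 12.3 kb from the 5′ end, also in intron 1. It is 2172 bp wide and holds 2 TEAD, 2 AP-1 and 9 CAGAC matches and 1 GGCGCC, with a TEAD and an AP-1 word 89.5 bp apart. Gain and loss within intron 1 of SMAD3 were therefore not separated by the presence of the TEAD, AP-1 or CAGAC words.

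Further losses lay upstream of SMAD3 on chromosome 15, but apart from those of the gene. No lost region was listed between 66895517 and 67107282, where the first loss of SMAD3 starts. SMAD6, the inhibitory SMAD of BMP signalling, has its 5′ end 361.5 kb upstream of that of SMAD3. From there to the 3′ end of SMAD3, 16 lost regions and 1 gained region were listed, the gained one being that of SMAD3 intron 1. How often other stretches of this length hold as many was not counted. Of the lost regions, 4 overlapped the body of SMAD6, 1 of them, chr15:66701245-66703963, over its 5′ end.

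SMAD7, the inhibitory SMAD that TGF-β itself induces, spans chr18:48919853-48950965 on the minus strand. Its region, chr18:48934258-48935693, was gained, is 1436 bp wide and lies 16.0 kb downstream of the 5′ end, in intron 3. It was the one region of the 19 with the ATF4-C/EBP word TGATGCAA, which was in 10.1% of all gained and 4.36% of all lost regions:
SMAD7, gained, chr18:48934859-48934890: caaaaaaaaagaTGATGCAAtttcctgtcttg

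It had 1 CAGAC match and no TEAD or AP-1 word. The nearest lost region was 461 kb from the SMAD7 5′ end. SKIL, at chr3:170357342-170396835 on the plus strand, had neither kind. The nearest lost and gained regions were 330.7 and 597 kb from its 5′ end. Of the 2 inhibitors of the pathway among the 9 genes, SMAD7 thus had a gain inside the gene and SKIL no listed change nearby.

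**Figure D2:**
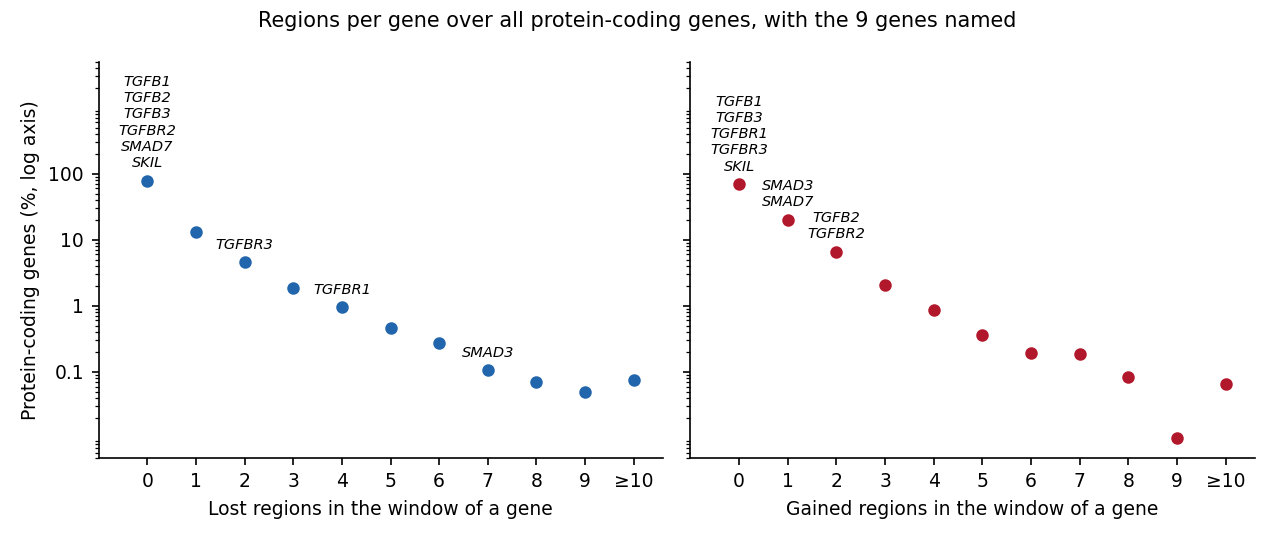
Percentage of the 20007 protein-coding genes (y axis, log scale) with each number of lost (left, blue) or gained (right, red) H3K27ac regions in their window (x axis), with the 9 genes written above the point of their own number. SMAD3, with 7 lost regions, lies where the share of genes is 0.105%, whereas no gene of the 9 has more than 2 gained regions.

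Within the 13 lost regions, 9 were centred in the body of the gene they were joined to, all in introns of its canonical transcript, and 9 had that gene as the nearest protein-coding gene. None lay within 2500 bp of the gene's 5′ end, while 5 lay within that distance of the start of some transcript of the gene. Of the 6 gained regions, 5 were centred in the gene body, 1 was at the 5′ end and 5 were near some transcript start. The rule takes every region in a gene body, and 7 of the 9 lost regions centred in gene bodies were those of SMAD3. No intronic share was computed for the whole lists, so these positions describe the regions counted here only.

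Lost regions at the 9 genes had a median width of 2362 bp (lowest 1057, highest 2989), and the whole lost list one of 1905 bp. The 6 gained regions had a median of 1274 bp (427 to 2172), and the gained list 1697 bp. The CpG ratio of the 13 lost regions stayed within 0.127 to 0.280, with a median of 0.234. That of the 6 gained regions ran from 0.0569 to 0.841, with a median of 0.295, and the 2 above 0.7 were those over the 5′ ends of RRP15 and TGFBR2. The median of the whole gained list was 0.247. Median GC content was 49.6% for the 13 lost regions and 47.9% for the 6 gained ones, beside 46.8% and 46.1% in the lists.

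**Figure D3:**
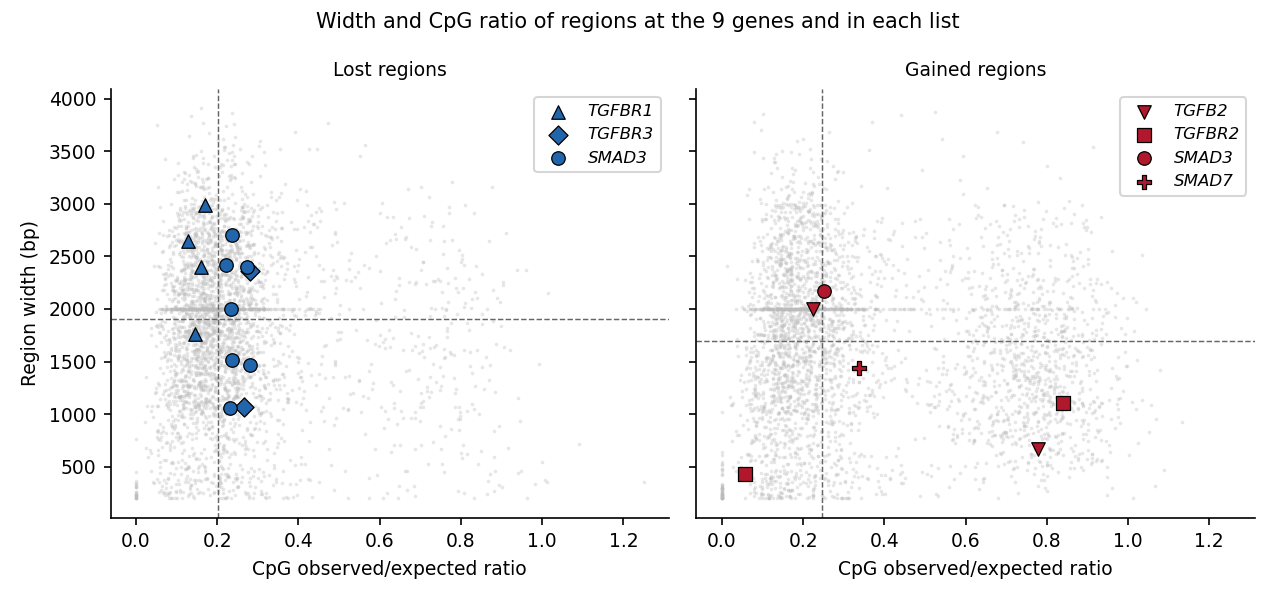
Width in bp (y axis) against CpG observed/expected ratio (x axis) of every lost (left) and gained (right) region, in grey, with the regions at the 9 genes as coloured symbols, 1 symbol per gene; dashed lines are the medians of each list. The lost regions at the 9 genes all have a ratio of 0.280 or less, and 2 gained regions, at TGFB2 and TGFBR2, lie above 0.7.

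A TEAD word was in 53.8% of the 13 lost regions and in 42.9% of the lost list, and in 33.3% of the 6 gained regions and 27.5% of the gained list. For AP-1 the shares were 53.8% and 56.5% among lost and 50.0% and 53.6% among gained regions. Both words together were in 4 of the 13 lost regions (26.4% of the lost list) and in 2 of the 6 gained ones (19.0% of the gained list). CAGAC, a 5-base word that occurs often by its length, was in all 13 lost regions and in 5 of the 6 gained ones, beside 93.1% and 88.8% of the lists, and its density was 2.73 and 2.56 per kb, beside 2.29 and 2.01. A wider region has more room for a word, and the 13 lost regions were wider than their list. Per kb, TEAD words numbered 0.3735 in these lost and 0.3837 in these gained regions, beside 0.3237 and 0.2075 in the lists. For AP-1 the densities were 0.4855 and 0.5116, beside 0.5124 and 0.5757. The truncated palindrome was in 3 of 13 lost and 0 of 6 gained regions (12.2% and 10.96% of the lists), and GGCGCC in 0 of 13 and 2 of 6 (18.2% and 27.9%). With 13 and 6 regions, 1 region more or less moves these shares by more than most of the differences from the lists. For scale, the promoter windows held a TEAD word in 4.15%, the truncated palindrome in 1.44%, GTCTAGAC in 0.202%, CAGAC in 45.3%, GGCGCC in 19.2% and TGATGCAA in 0.866% of cases, in 300 bases each.

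**Figure D4:**
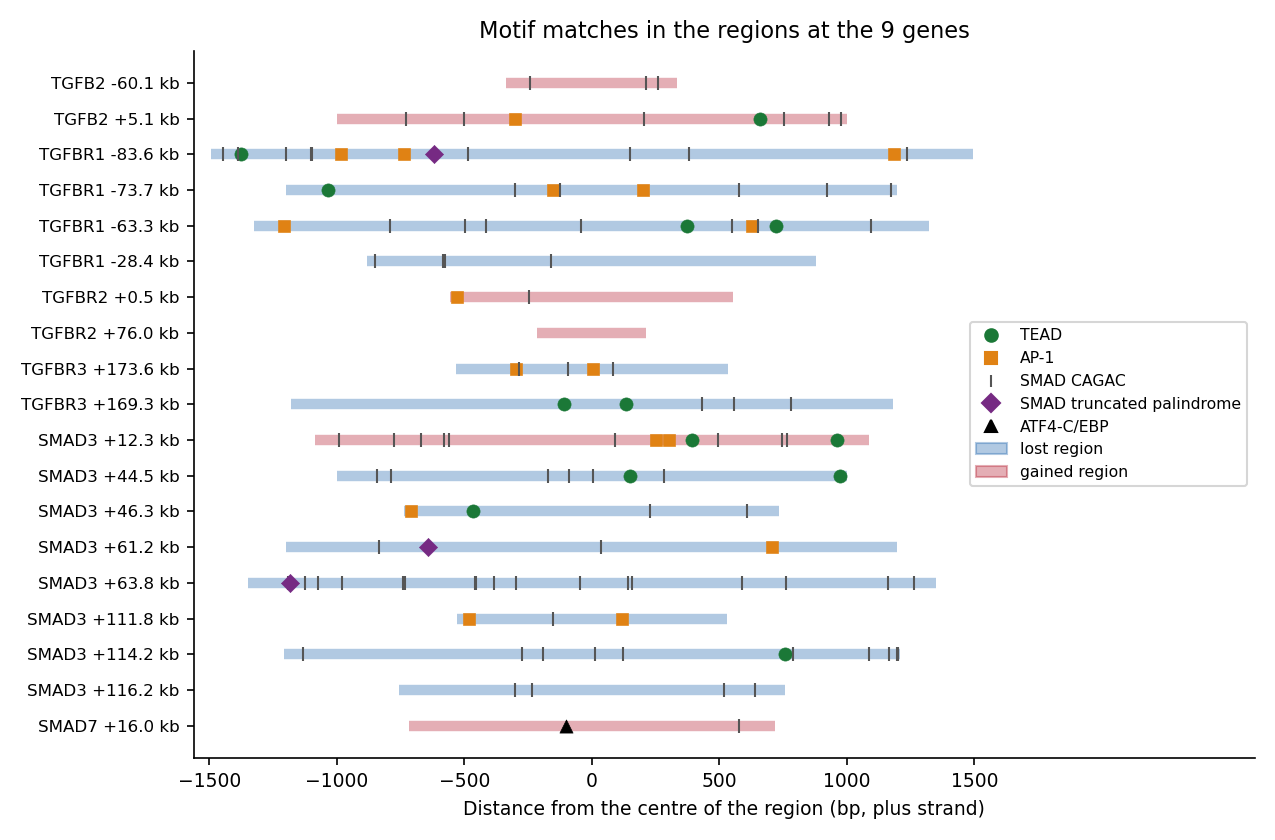
Matches of the TEAD, AP-1, CAGAC, truncated palindrome and ATF4-C/EBP words in each of the 19 regions, drawn by distance from the centre of the region in bp along the plus strand (x axis), 1 row per region, labelled with its gene and its distance from the gene's 5′ end. Blue bars are lost and red bars gained regions; the row with the densest CAGAC ticks is the lost SMAD3 region at 63.8 kb, with 17.

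Beyond the 9 genes, 102 other genes of the TGF-β superfamily pathways were counted in the same way, in 10 groups by role. A lost region was present at 37 of them (36.3%, beside 21.6% of all protein-coding genes) and a gained one at 30 (29.4%, beside 30.5%). By class, 25 had lost regions only, 18 gained only, 12 both and 47 neither. A lost region within 2500 bp of the 5′ end was found at 13 of the 102 (12.75%, beside 1.96%) and a gained one at 7 (6.86%, beside 6.4%). Such a region is called at the 5′ end below. At some genes, among them BMP4, JUNB, SNAI1, FSTL3, FOXH1, PPM1A and ZFYVE9, it did not reach the 5′ end itself. The list was drawn up by role and with earlier results of these data known, and some windows overlap, so the shares describe the list and were not tested.

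The target genes held 35 of the 84 lost regions counted gene by gene over the 102 genes. Of 20 textbook TGF-β and SMAD target genes, 11 (55%) had a lost region, beside 21.6% of all protein-coding genes. A gained region was present at 6 (30%), beside 30.5%. At 6 (30%, beside 1.96%) a lost region lay at the 5′ end. TNC, which encodes the matrix glycoprotein tenascin C, had 8 lost regions and no gained one, with 1 over its 5′ end. SNAI1, an epithelial-mesenchymal transition factor, had 4 lost regions, TAGLN, the gene of the actin-binding protein transgelin, had 3, and JUNB, an AP-1 subunit gene, had 2, in each case with loss at the 5′ end and no gain. The other 2 with loss at the 5′ end are fibrillar collagen genes. In the opposite direction, ID1, a BMP-responsive inhibitor of DNA binding, had 7 gained regions and no lost one. None of the 7 lay within 2500 bp of the ID1 5′ end, so which gene they act on cannot be told from position. MYC, which TGF-β represses in epithelial cells, had 4 gained regions, with gain at its 5′ end, and 1 lost.

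Among ligands and the proteins that hold or release them, losses lay at FBN1, the gene of the microfibril protein fibrillin-1 (4 lost, 1 of them at the 5′ end, and 1 gained), at LRRC32, which displays latent TGF-β on the cell surface (4 lost), and at BMP4 (4 lost, 1 at the 5′ end). ITGB1, the integrin β1 gene, had a lost region at its 5′ end beside 1 gained region elsewhere. LTBP1, which anchors latent TGF-β in the matrix, had 3 gained regions and no lost one. MMP14, a membrane-bound metalloproteinase gene, had 3 gained and 1 lost, and GDF15, a stress-induced ligand gene, had 2 of each with gain at its 5′ end. Of the secreted antagonists, GREM1, which blocks BMPs, had 8 gained regions and no lost one, and gain at its 5′ end. FST, the activin-binding follistatin gene, had 4 lost and 1 gained, and its relative FSTL3 had 1 lost, at the 5′ end.

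Between receptor and nucleus the 2 directions were mixed. Of 12 other receptors and co-receptors, 9 had no listed region, beside 55.1% of all protein-coding genes. ACVR1, a type I receptor gene of BMP and activin signalling, had a lost region at its 5′ end and 1 gained region. Of 6 other SMAD genes, 3 (50%) had a lost region, beside 21.6% of all protein-coding genes. A gained region was present at 1 (16.7%), beside 30.5%. SMAD6 had 5 lost regions. SMAD2 and SMAD4 had 1 lost each and SMAD9 1 gained, all 3 named after their values were seen. Of 14 genes for the turnover or inhibition of receptors and SMADs, 6 (42.9%) had a gained region, beside 30.5% of all protein-coding genes. A lost region was present at 2 (14.3%), beside 21.6%. NEDD4L, a ubiquitin ligase gene, had 4 gained and PPM1A, a SMAD phosphatase gene, had 3. ZFYVE9, whose product SARA brings SMADs to the receptor, had 2 gained. In both PPM1A and ZFYVE9, 1 gained region lay within 2500 bp of the 5′ end. Of 9 co-repressors and partners, FOXH1 and TRIM33 had 1 gained region each, within 2500 bp of the 5′ end, and TGIF2 had 2 lost, 1 of them over the 5′ end. Among 7 kinases and adaptors of SMAD-independent signalling, RHOA with 3 and TRAF6 with 2, also named after their values were seen, had lost regions. These are 28.6% of the 7, beside 21.6% of all protein-coding genes. None of the 7 had a gained region, beside 30.5%.

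**Figure D5:**
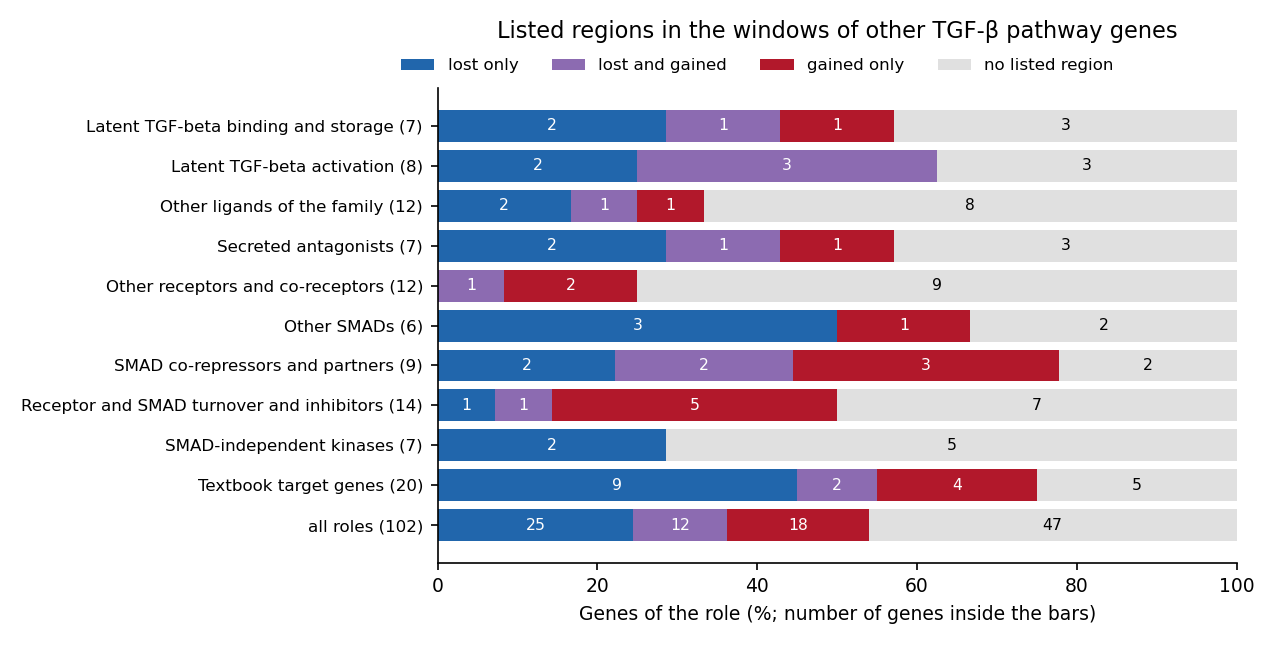
Percentage of the genes of each role (x axis, with the number of genes in the bars and the number per role in brackets) that had lost regions only, lost and gained, gained only or no listed region in their window. The share with a lost region runs from 1 of 12 receptors and co-receptors to 5 of 8 genes of latent TGF-β activation, beside 21.6% of all protein-coding genes. That with a gained region runs from 0 of 7 SMAD-independent kinases to 5 of 9 co-repressors and partners, beside 30.5%. Differences between roles were not tested.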

How the data were processed

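H3K27ac was measured in 8 LX-2 libraries (4 control, 4 OGTi). Per the methods, the authors used Chromap for alignment (hg38) and MACS2 for peaks of single libraries over input (version 2.1.1.20160309 in their processing notes), left out duplicates and blacklisted regions, and tested MAnorm2 bins over all 8 libraries. The deposited lists give chromosome, start and end in bp. The authors deposited these other values without signal, fold or p-value per region. The list names state an adjusted p of 0.15, the methods 0.05.

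Starts were converted to count from 1. Genes came from GENCODE release 44 on hg38 (62700 genes). The window was the gene body plus 100 kb on each side of the 5′ end, and any shared base counted. GC, CpG ratio and words on both strands were computed with Python 3.11.15, pandas 2.3.3 and pysam 0.24.0. Window counts, the joining of regions and the search for TEAD words were tested on simulated data. GC, CpG ratio and the other words were not. All 9 genes had RefSeq promoters. Genes named from the pathway list had a region within 2500 bp of the 5′ end or were the 5 per direction with most regions, ties included, and COL1A1, COL1A2 and ACTA2 entered counts only. The members, lists and rules were chosen with earlier results of these data known. No test was run. Windows, start sites, joined regions and central 1000 bp were varied.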

Additional observations from a re-analysis of the deposited data

How the results depend on the processing

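Of 68 alternatives, 57 stayed near the reported value and 11 moved further. Near meant within 1.5 times a reported count or within the counting interval of a reported share. For a median it meant a shift smaller than the standard deviation of the regions, which is a wide limit. With a window of 200 kb the 9 genes had 22 lost and 15 gained regions, and with windows drawn around all transcript starts they had 20 lost, the 7 added ones lying downstream of TGFB2. Counting the start of any transcript, 5 lost and 5 gained regions were within 2500 bp, and 2 gained ones were within 5000 bp of the gene's own 5′ end. With 2500 bp in place of 100 kb, 16 of the 102 pathway genes had a lost and 21 a gained region, beside 37 and 30. Which direction was more frequent among the pathway genes thus depended on the window. The share over all protein-coding genes was not computed for the narrower window. In the central 1000 bp of the 13 lost regions, a TEAD word remained in 30.8%, an AP-1 word in 23.1% and the truncated palindrome in 0, TEAD remained in 16.7% of the 6 gained regions, and joining regions within 1000 bp raised the AP-1 share to 77.8%. No paired analysis was possible because libraries have no values of their own in these lists. For the same reason, neither a stricter threshold nor the omission of single replicates was run. The depth behind each region is unknown, and a region that is not listed may have been undetectable at this depth, and intervals cover counting only.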

Other observations

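The regions between 100 and 200 kb from the 5′ ends, which the report does not count, add most at TGFB2. Downstream of this gene 7 lost regions lay between 130.4 and 149.5 kb from its 5′ end, all within the long non-coding gene LINC02869 and all with TGFB2 as the nearest protein-coding gene, the first at chr1:218474761-218476760 and the last at chr1:218493799-218495798. On the upstream side, 3 abutting gained regions had centres from -137.1 to -133.7 kb, nearer to RRP15. TGFB2 thus had 2 gained regions within 100 kb, and 7 lost and 3 gained ones at 100 to 200 kb.

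At TGFB1, 5 abutting gained regions lay 126.8 to 134.6 kb downstream of the 5′ end, over AXL, a receptor tyrosine kinase gene, the first of them, chr19:41218446-41220266, with its centre 0.133 kb from the AXL 5′ end. SMAD3 had 2 further lost regions, at -181.6 and -168.6 kb, within the stretch between SMAD6 and SMAD3, and SMAD7 had 1 further gained region, at -104.7 kb in DYM. TGFB3, TGFBR1, TGFBR2, TGFBR3 and SKIL had none in this range. Whether any of these regions acts on the gene named was not tested.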
